A study of Mus musculus with 6 samples.

Results

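The COPII and COPI vesicle coats, the ARF GTPases that recruit COPI, and the receptors that load cargo into these vesicles were followed as a set of 41 genes, chosen by gene name from the 25718 genes of the deposited expression table. RNA sequencing measured them in primary hepatocytes isolated from alcohol-fed mice of 2 genotypes, with 3 libraries of each. One group was wild type (WT) and the other was heterozygous for a knockout of S100a16, a calcium-binding protein (S100a16KO+/-). The sample labels call the second genotype a knockdown, while the methods of the study describe heterozygous knockout mice, made by recombining a floxed allele with EIIa-Cre, a transgene active in the early embryo, so that the deletion was not limited to hepatocytes. Homozygous loss was lethal. The mice were 8 to 10 weeks old and on a C57BL/6 background. All of them went through the same alcohol model, with 5 days of control liquid diet, 10 days of a diet with 5% ethanol (vol/vol) and 1 gavage of ethanol at 5 g/kg, and were examined 9 h after the gavage. No library from mice without ethanol was analysed here, so every difference below is between genotypes under alcohol.

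Proteins that leave the endoplasmic reticulum (ER) are packed into COPII vesicles, whose coat is built when the GTPase Sar1 recruits the inner layer of Sec23 and Sec24 and then the outer cage of Sec13 and Sec31. COPI vesicles carry material between Golgi cisternae and back to the ER, including escaped ER chaperones, which are caught by KDEL receptors. Hepatocytes secrete albumin, lipoproteins and clotting factors through this route in large amounts.

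S100a16 itself was lower in the S100a16KO+/- libraries. Its counts were 1001, 1056 and 1107 in WT and 433, 390 and 366 in S100a16KO+/-, 38.0% of the WT level, with a log2 fold change of -1.40 ± 0.11 (standard error, SE) and an edgeR adjusted p of 4.14e-07. The libraries held 67658095 to 71807834 estimated counts, which are not numbers of fragments, and mitochondrial transcripts took 17.0% to 21.1% of them. WT replicate 1 and S100a16KO+/- replicate 2 stood apart from the other libraries on the second principal component, which held 12.8% of the variance. The 6 hepatocyte markers, among them albumin, were abundant, and their sum overlapped between genotypes, at 106083 to 117686 CPM (counts scaled to the library total) in WT and 104144 to 115172 in S100a16KO+/- (1 of 6 lower). Markers of some other cells also moved with genotype. The summed level of 6 sinusoidal endothelial markers was 183 to 190 CPM in WT and 260 to 266 in S100a16KO+/- (5 higher, 1 lower), that of 6 stellate cell markers was 35.3 to 39.2 against 64.5 to 71.1 (3 higher, 0 lower), and that of 5 erythroid markers was 215 to 252 against 23.4 to 26.3 (all 5 lower). Among 6 Kupffer cell markers (86.3 to 104 against 96.5 to 109) 2 were higher, and among 5 lymphocyte and neutrophil markers (2.89 to 3.72 against 4.01 to 4.96) 0 were called. Of 4 cholangiocyte markers (2.61 to 3.31 against 1.88 to 2.44), 3 were tested and 1 was lower, while the median log2 fold change of the 3 was 0.47. Of all tested genes, 11.6% were called higher and 11.2% lower. The part of these cells in the results below was not tested. In RNA from a mixed preparation, fewer cells of a type and less RNA per cell cannot be told apart.

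All 41 genes had enough counts to be tested. Of these, 23 were higher in S100a16KO+/- and 3 were lower at an adjusted p under 0.05 (edgeR quasi-likelihood test, two-sided, Benjamini-Hochberg adjustment over all 15957 tested genes), and 15 were not called. Among all tested genes, 11.6% were called higher and 11.2% lower. The members called higher were 56.1% of the set and those called lower 7.32%. The median log2 fold change of the set was 0.27, beside 0.01 for all tested genes. In 26 members every S100a16KO+/- library lay above every WT library and in 4 every one lay below, where 19.2% and 18.6% of all tested genes did so. By the criterion of the study, an unadjusted p under 0.05 and a change of at least 2-fold, 5 members passed (Arfgap3, Tmed3, Sec24d, Sec23b and Tmed9), all of them higher. Of all tested genes, 4.52% passed in either direction and 2.90% were higher. The study used DESeq2, while these thresholds were applied here to the edgeR fit, so the genes that pass can differ. In the DESeq2 fit made here, 5 members also passed. Without the 2 libraries that stood apart, 24 members were higher and 3 lower, and the median was 0.28.

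**Figure D1:**
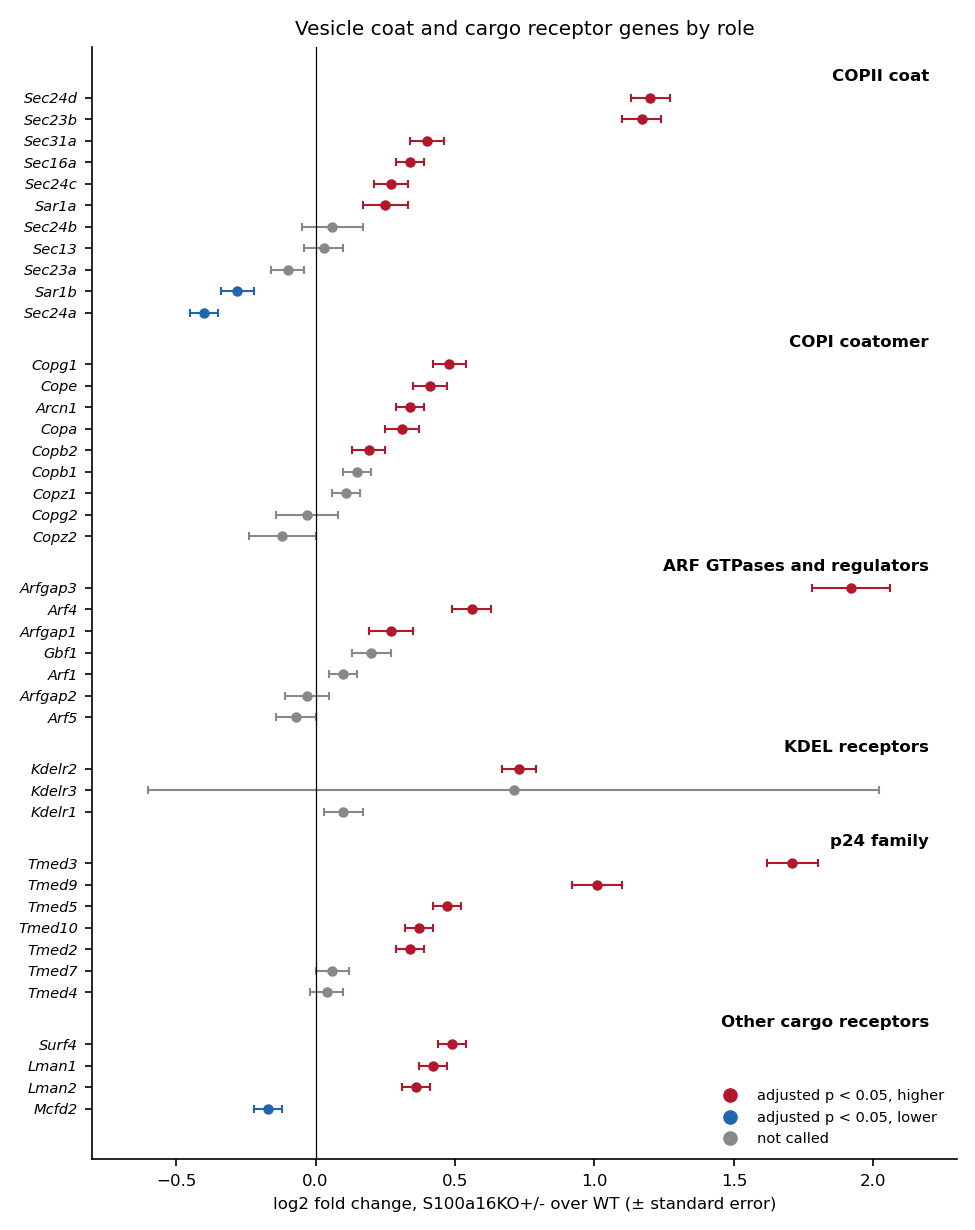
Log2 fold change (S100a16KO+/- over WT, x axis) of each of the 41 genes, with bars for the standard error, grouped by role and coloured by the call at an adjusted p under 0.05 (edgeR, 3 libraries per genotype). Rises reached 1.92 (Arfgap3) and falls -0.40 (Sec24a), and the wide bar belongs to Kdelr3, which had 0 to 24 counts per library.

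Promoter sequences of the members were searched for elements of ER and Golgi stress genes. RefSeq promoters (GRCm38.p6, 250 bases before to 50 after a start site) were at hand for 36 of the 41 members, 40 promoters in all. None was at hand for Arcn1, Kdelr2, Lman1 and Tmed2, which were called higher, or for Tmed7, which was not called. The promoter of Sec24a (chromosome 11, 51756785 to 51757084) lies inside the gene model used for the counts. Both strands were searched for ERSE (CCAAT and CCACG with 9 free bases between them) and ERSE-II (ATTGG and CCACG with 1 free base), both known from ER stress genes, for the core of the unfolded protein response element (TGACGTG), and for the Golgi stress element (ACGTGGC). The last pair overlap where TGACGTGGC occurs. Neither ERSE nor ERSE-II was found in a member, and they occur in 0.119% and 0.0365% of the 32851 promoters in the RefSeq table. The TGACGTG core was found in 7 members (Arf1, Copb1, Copb2, Gbf1, Kdelr3, Sec23a and Sec24d), 19.4% of those matched, beside 2.01% of all promoters and 3.18% of tested genes with a promoter. Of the 7, 2 were called higher (Copb2 and Sec24d) and the others were not called. Of all tested genes with this core, 19.3% were called higher, and of the 36 matched members 19 were.

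The Golgi stress element letters were found in 14 members, 38.9% of those matched, beside 2.58% of all promoters and 4.34% of tested genes with a promoter. Of the 14, 7 were called higher (Copg1, Sar1a, Sec24c, Sec24d, Sec31a, Tmed3 and Tmed9), 1 was called lower (Mcfd2), and Arf1, Arf5, Copz2, Kdelr3, Sec13 and Sec23a were not called. Among all 36 matched members, 19 were called higher and 3 lower. Of all tested genes with the element, 21.7% were called higher. The 3 members with the largest rise among those that hold it are shown whole, in the direction of the gene, with the TGACGTGGC or ACGTGGC letters (GCCACGT when read on the other strand) in capitals. Sec24d lies at chr3:123267246-123267545 on the plus strand, Tmed3 at chr9:89704994-89705293 on the minus strand, with the element at 2 places, and Tmed9 at chr13:55592885-55593184 on the plus strand.
Sec24d: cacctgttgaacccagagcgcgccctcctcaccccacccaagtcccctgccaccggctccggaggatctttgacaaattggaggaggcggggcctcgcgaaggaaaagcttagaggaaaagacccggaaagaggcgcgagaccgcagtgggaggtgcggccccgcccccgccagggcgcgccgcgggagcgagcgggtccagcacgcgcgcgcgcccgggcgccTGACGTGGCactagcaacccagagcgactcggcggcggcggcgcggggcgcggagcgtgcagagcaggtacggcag
Tmed3: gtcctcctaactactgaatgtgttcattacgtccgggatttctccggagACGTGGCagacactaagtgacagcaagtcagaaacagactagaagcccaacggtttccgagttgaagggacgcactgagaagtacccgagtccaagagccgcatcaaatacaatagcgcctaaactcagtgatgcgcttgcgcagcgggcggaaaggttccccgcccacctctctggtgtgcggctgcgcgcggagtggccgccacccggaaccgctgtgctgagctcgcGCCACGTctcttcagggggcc
Tmed9: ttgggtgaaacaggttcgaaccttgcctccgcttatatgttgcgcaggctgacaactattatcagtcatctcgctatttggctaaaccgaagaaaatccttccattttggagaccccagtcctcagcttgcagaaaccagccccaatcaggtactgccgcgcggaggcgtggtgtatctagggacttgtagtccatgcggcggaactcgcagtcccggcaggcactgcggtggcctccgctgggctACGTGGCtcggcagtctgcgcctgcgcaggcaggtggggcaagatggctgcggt

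In Sec24d the element began 24 bases before the start site, and in Tmed3 201 bases before and 30 bases into the transcript. In Tmed9 it began 4 bases before a RefSeq start site that lies inside the gene model used for the counts. Short windows of 10 bases either side show the same letters in members that rose less (Copg1, Sec31a, Sec24c and Sar1a), fell (Mcfd2) or were not called (Sec23a and Arf1), with the element in capitals.
Copg1: gctcagggcgACGTGGCgggcgggagt
Sec31a: ggctgcggctGCCACGTtggagcggag
Sec24c: cctaaggccgACGTGGCagaaggagtg
Sar1a: gacagacgctGCCACGTcttaccccgc
Mcfd2: cccacggtgaGCCACGTtccggagcct
Sec23a: ctcccctttgACGTGGCagaggcggca
Arf1: gcaggcgctgACGTGGCtgccgtcagc

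The windows lie at chr6:87887933-87887959 (Copg1, plus strand), chr5:100416206-100416232 (Sec31a, minus strand), chr14:20674236-20674262 (Sec24c, plus strand), chr10:61680117-61680143 (Sar1a, plus strand), chr17:87266122-87266148 (Mcfd2, minus strand), chr12:59011993-59012019 (Sec23a, minus strand) and chr11:59228228-59228254 (Arf1, minus strand). Log2 fold changes of these genes ranged from -0.17 (Mcfd2) to 0.48 (Copg1), and Arfgap3 and Sec23b, with log2 fold changes of 1.92 and 1.17, held none of the searched letters in these promoters. A match is a description of the sequence, and no binding was measured.

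The COPII coat held genes called in both directions, Sec24d higher beside Sec24a lower among them. Of its 11 genes, 6 were higher (Sec24d, Sec23b, Sec31a, Sec16a, Sec24c and Sar1a), 2 were lower (Sec24a and Sar1b) and 3 were not called (Sec23a, Sec24b and Sec13), with a median log2 fold change of 0.25. The called shares were 54.5% and 18.2%, beside 11.6% and 11.2% of all tested genes. Whether the share of the 2 falls differs from that of all tested genes was not tested. Sec23b (chromosome 2, 144556229 to 144590749, mm10) encodes a subunit of the inner coat that activates the GTPase of Sar1. It held none of the searched promoter elements and measured 19.5, 16.9 and 16.8 CPM in WT and 38.7, 40.5 and 40.6 CPM in S100a16KO+/-. The lowest S100a16KO+/- library was far above the highest WT library, and the means, 17.7 ± 1.54 (SD, n = 3) and 39.9 ± 1.06, differed 2.25-fold (log2 fold change 1.17 ± 0.07, edgeR adjusted p = 4.64e-08). Its paralog Sec23a measured 69.9, 67.7 and 66.9 CPM in WT and 66.4, 61.2 and 62.9 in S100a16KO+/-, which did not overlap by a narrow margin and did not pass the test (log2 fold change -0.10 ± 0.06, edgeR adjusted p = 0.226).

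The 4 Sec24 genes encode the coat subunits that bind the sorting signals of cargo, and each prefers its own cargoes. The promoter of Sec24d (chromosome 3, 123267455 to 123365641) held TGACGTGGC. So did those of Sec23a, Arf1 and, on the other strand, Kdelr3, none of them called. Sec24d measured 29.5, 28.4 and 27.0 CPM in WT and 65.1, 70.2 and 59.4 CPM in S100a16KO+/-. The genotypes were widely apart, with means of 28.3 ± 1.24 and 64.9 ± 5.43 (SD, n = 3), a 2.29-fold difference (log2 fold change 1.20 ± 0.07, edgeR adjusted p = 1.58e-08). Sec24a went the other way. It measured 71.2, 73.3 and 74.2 CPM in WT and 54.6, 55.0 and 55.7 CPM in S100a16KO+/-, with no overlap (log2 fold change -0.40 ± 0.05, edgeR adjusted p = 6.37e-05). The gene model Gm25291 lies within Sec24a on the same strand. Sec24c measured 54.9, 54.2 and 57.5 CPM in WT and 65.3, 64.9 and 70.7 CPM in S100a16KO+/-, all above WT (log2 fold change 0.27 ± 0.06, edgeR adjusted p = 0.00373). Sec24b, with 18.0, 17.9 and 14.0 CPM against 15.4, 18.8 and 17.9 CPM, overlapped between genotypes (log2 fold change 0.06 ± 0.11, edgeR adjusted p = 0.773). Sec24a and Sec24b are the more closely related pair of the family, as are Sec24c and Sec24d.

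In the outer layer, Sec31a, a cage subunit, rose from 82.8 ± 4.65 to 109 ± 5.65 CPM (SD, n = 3, log2 fold change 0.40), while its partner Sec13 stayed between 22.8 and 23.7 CPM in all 6 libraries (edgeR adjusted p = 0.814). Sec13 also serves in nuclear pores. Sec16a, a scaffold of ER exit sites, was higher at 95.2 ± 2.85 CPM against 75.2 ± 1.88 (log2 fold change 0.34). The GTPases that start the coat were called in opposite directions, Sar1b lower and Sar1a higher. Sar1b, mutated in human chylomicron retention disease, measured 192, 206 and 218 CPM in WT and 179, 165 and 164 CPM in S100a16KO+/-, all below WT (log2 fold change -0.28 ± 0.06, edgeR adjusted p = 0.00334). Sar1b starts at 51763687 on chromosome 11 (plus strand), next to Sec24a (minus strand), whose gene model reaches 51763634. The called falls of Sec24a and Sar1b are thus those of adjoining genes read in opposite directions. Sar1a was called higher at a mean of 70.1 against 58.9 CPM (log2 fold change 0.25 ± 0.08, edgeR adjusted p = 0.0457), but its libraries overlapped. The Sar1a call ended without WT replicate 1 (edgeR adjusted p = 0.155), WT replicate 3 (0.13), S100a16KO+/- replicate 1 (0.219) or S100a16KO+/- replicate 3 (0.116). The calls of Sec24c and Sar1b were lost in fits to log2 FPKM, at adjusted p = 0.0523 and 0.0511 with a pseudocount of 1 (limma).

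**Figure D2:**
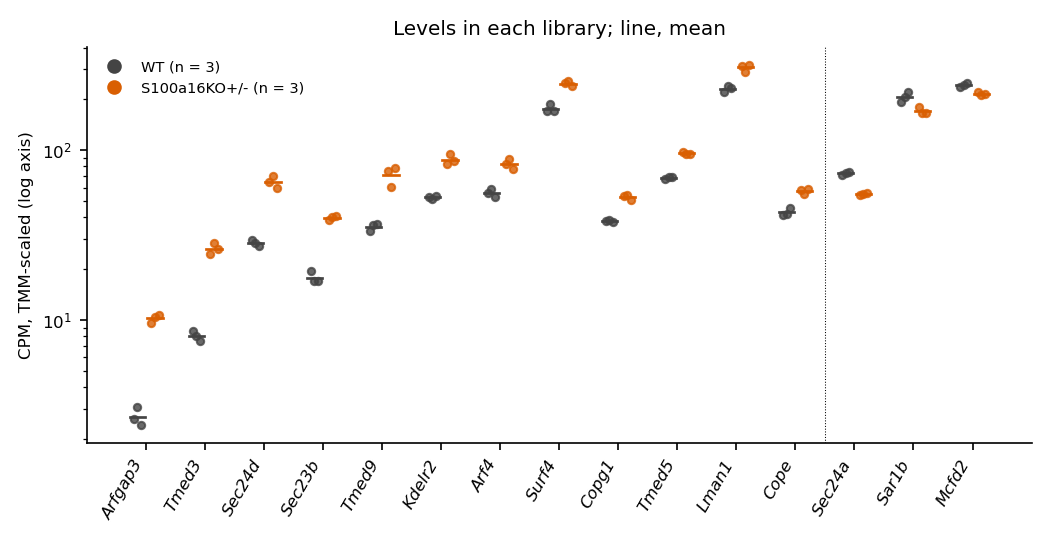
Level in each library (CPM scaled by TMM factors, log axis) of the 12 members with the largest called rise, left of the dotted line, and the 3 that fell, right of it, with lines for the group means. The 3 WT and 3 S100a16KO+/- libraries did not overlap in any of these 15 genes, and the lowest level shown was that of Arfgap3 in WT (2.41 to 3.05 CPM).

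Of the 9 COPI coatomer genes, 5 were higher (Copg1, Cope, Arcn1, Copa and Copb2) and 0 lower, and 4 were not called (Copb1, Copg2, Copz1 and Copz2). The called shares were 55.6% and 0%, beside 11.6% and 11.2% of all tested genes, and the median was 0.19. At an unadjusted p under 0.05 the counts were 6 and 0, and DESeq2 and limma voom also called 0 lower. Copg1, a subunit of the adaptor layer of coatomer that contacts ARF and cargo, measured 38.1, 38.5 and 37.4 CPM in WT and 53.7, 54.2 and 50.7 CPM in S100a16KO+/- (log2 fold change 0.48 ± 0.06, edgeR adjusted p = 2.27e-05). Its paralog Copg2, which overlaps the imprinted gene Mest on the other strand, ranged from 14.8 to 20.2 CPM with the genotypes mixed (log2 fold change -0.03, edgeR adjusted p = 0.872). Cope, a cage subunit, measured 41.5, 42.2 and 45.8 CPM in WT and 57.9, 55.3 and 59.1 CPM in S100a16KO+/- (log2 fold change 0.41, edgeR adjusted p = 0.000162). For Copg1 and Cope, all 3 S100a16KO+/- libraries were above every WT library.

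Called rises of the remaining coatomer subunits were smaller. Arcn1, the delta subunit, rose from 93.3 ± 1.88 to 118 ± 1.76 CPM and Copa, the alpha subunit of the cage, from 123 ± 4.59 to 152 ± 7.67 CPM (SD, n = 3). Copa overlaps Ncstn on the other strand. Copb2 was called at a log2 fold change of 0.19 ± 0.06 (edgeR adjusted p = 0.0245), a call that ended without WT replicate 1 (0.0509), WT replicate 3 (0.115), S100a16KO+/- replicate 1 (0.0766) or S100a16KO+/- replicate 3 (0.0979). Copb1 missed the threshold with a log2 fold change of 0.15 (edgeR adjusted p = 0.0731), although its libraries did not overlap. The zeta subunits Copz1 and Copz2 had log2 fold changes of 0.11 and -0.12, neither of them called.

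Arfgap3 had the largest change of the whole set. It encodes a GTPase-activating protein for ARF1 on Golgi membranes that takes part in the COPI cycle, and lies at 83299739 to 83350247 on chromosome 15. The level was 2.62, 3.05 and 2.41 CPM in WT and 9.63, 10.4 and 10.6 CPM in S100a16KO+/-, from 165 to 215 counts per WT library and 667 to 767 per S100a16KO+/- library. All S100a16KO+/- libraries lay above all WT libraries, and the means of 2.70 ± 0.328 and 10.2 ± 0.541 CPM (SD, n = 3) differed 3.80-fold (log2 fold change 1.92 ± 0.14, edgeR adjusted p = 1.27e-07). On the log2(FPKM + 1) scale, which understates changes of low genes, the difference was 1.06.

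Of the 7 ARF GTPases and regulators, 3 were higher (Arfgap3, Arf4 and Arfgap1), 0 were lower by edgeR, DESeq2 or limma voom, also at an unadjusted p under 0.05, and 4 were not called (Arf1, Arf5, Gbf1 and Arfgap2). The shares called by edgeR were 42.9% and 0%, beside 11.6% and 11.2% of all tested genes, and the median was 0.20. Arf4, a class II ARF that acts with the other ARFs at the ER-Golgi interface, measured 56.0, 59.1 and 52.5 CPM in WT and 82.2, 88.7 and 77.0 CPM in S100a16KO+/-, without overlap (log2 fold change 0.56 ± 0.07, edgeR adjusted p = 2.21e-05). Arf4os lies on the other strand of Arf4. Arf1, the main recruiter of coatomer, had means of 125 ± 1.95 and 134 ± 5.13 CPM, and Arf5 44.2 ± 4.49 and 42.0 ± 2.22 CPM (SD, n = 3), neither of them called. Arfgap2 ranged from 63.7 to 79.6 CPM with the genotypes mixed.

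Arfgap1, another ARF GTPase-activating protein, was called at a log2 fold change of 0.27 ± 0.08 (edgeR adjusted p = 0.0359). The call ended without WT replicate 1 (0.126), WT replicate 2 (0.10), S100a16KO+/- replicate 1 (0.0877) or S100a16KO+/- replicate 3 (0.120), and without both libraries that stood apart (0.0750). Gbf1, the exchange factor that loads ARF1 with GTP at the cis-Golgi, had a log2 fold change of 0.20 and missed the threshold (edgeR adjusted p = 0.0628), which it passed without WT replicate 1 (0.0430).

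KDEL receptors return escaped chaperones to the ER. Kdelr2 measured 52.8, 51.3 and 53.8 CPM in WT and 82.8, 94.1 and 85.7 CPM in S100a16KO+/-. Every S100a16KO+/- library was above every WT library (log2 fold change 0.73 ± 0.06, edgeR adjusted p = 7.14e-07). Kdelr1 measured 81.0, 72.3 and 68.4 CPM in WT and 76.8, 86.3 and 74.7 CPM in S100a16KO+/-, which overlapped (log2 fold change 0.10 ± 0.07, edgeR adjusted p = 0.373). Kdelr3 had 4, 0 and 24 counts in WT and 24, 21 and 0 in S100a16KO+/-. These lie around the 12 counts that 3 sequenced fragments appear to be worth in this table. The fitted Kdelr3 value, drawn with the wide bar, is therefore not read as a fold. A difference in Kdelr3 was not detectable at this depth.

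The p24 proteins, encoded by the Tmed genes, are membrane proteins that shuttle between ER and Golgi and carry cargo such as GPI-anchored proteins. Of 7 genes, 5 were higher (Tmed3, Tmed9, Tmed5, Tmed10 and Tmed2), 0 were lower by edgeR, DESeq2 or limma voom, also at an unadjusted p under 0.05, and 2 were not called (Tmed4 and Tmed7). The shares called by edgeR were 71.4% and 0%, beside 11.6% and 11.2% of all tested genes, and the median was 0.37. Tmed3, a gamma-subfamily member (chromosome 9, 89699206 to 89705068), with the Golgi stress element at 2 places in its promoter, measured 8.64, 8.01 and 7.50 CPM in WT and 24.3, 28.4 and 26.0 CPM in S100a16KO+/-. The means of 8.05 ± 0.573 and 26.3 ± 2.04 (SD, n = 3) differed 3.26-fold, far beyond the spread in either genotype (log2 fold change 1.71 ± 0.09, edgeR adjusted p = 1.05e-08). Tmed9, of the alpha subfamily, spans 55573732 to 55597697 on chromosome 13. Its RefSeq promoter, with ACGTGGC across the start site, lies inside that gene model, at 55592885 to 55593184. The gene measured 33.5, 36.1 and 36.4 CPM in WT and 75.1, 60.3 and 78.2 CPM in S100a16KO+/-. S100a16KO+/- replicate 2 was the lowest of its group and still above every WT library, and the means, 35.3 ± 1.57 and 71.2 ± 9.58 (SD, n = 3), differed 2.02-fold (log2 fold change 1.01 ± 0.09, edgeR adjusted p = 1.63e-06).

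Tmed5, also of the gamma subfamily, measured 67.3, 68.8 and 69.7 CPM in WT and 97.2, 94.1 and 94.8 CPM in S100a16KO+/-, without overlap (log2 fold change 0.47, edgeR adjusted p = 1.22e-05). Tmed2 and Tmed10, the beta and delta members, rose from 105 ± 2.95 to 132 ± 4.84 CPM and from 91.3 ± 1.68 to 118 ± 3.03 CPM (SD, n = 3). Of the p24 members that were not called, Tmed4 had a log2 fold change of 0.04, and Tmed7, which shares its strand and position with Ticam2, one of 0.06.

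All 4 of the other cargo receptors were called, 3 higher and 1 lower (75% and 25%, beside 11.6% and 11.2% of all tested genes). Surf4, a receptor for secreted proteins that include lipoproteins, measured 169, 185 and 170 CPM in WT and 246, 253 and 237 CPM in S100a16KO+/-, without overlap (log2 fold change 0.49 ± 0.05, edgeR adjusted p = 1.29e-05). It overlaps Surf2 on the other strand. Lman1 and Mcfd2 form the receptor complex that carries coagulation factors V and VIII out of the ER. Lman1 measured 219, 237 and 232 CPM in WT and 312, 289 and 316 CPM in S100a16KO+/- (log2 fold change 0.42 ± 0.05, edgeR adjusted p = 5.77e-05). Mcfd2 measured 234, 240 and 248 CPM in WT and 220, 209 and 212 CPM in S100a16KO+/- (log2 fold change -0.17 ± 0.05, edgeR adjusted p = 0.0215). Neither partner overlapped between genotypes. The Mcfd2 call ended without WT replicate 2 (edgeR adjusted p = 0.0679), WT replicate 3 (0.104) or S100a16KO+/- replicate 3 (0.0603). Lman2, a lectin receptor for glycoproteins, rose from 143 ± 2.22 to 183 ± 4.31 CPM (SD, n = 3, log2 fold change 0.36).

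Levels of different genes were compared in FPKM, which is scaled for transcript length. In WT the most abundant member was Sar1b at 146 ± 14.7 FPKM, followed by Mcfd2 at 76.1 ± 5.17, Arf1 at 53.3 ± 2.98, Surf4 at 47.6 ± 4.13, Tmed2 at 37.1 ± 2.2 and Kdelr1 at 35.1 ± 1.81 FPKM (SD, n = 3). The WT libraries of Arf1 and Surf4 overlapped in level, as did those of Tmed2 and Kdelr1. The members with the largest folds started low. So did members that were not called, such as Sec24b at 2.46 ± 0.326 and Gbf1 at 2.41 ± 0.156 FPKM in WT. Tmed9, which rose 2.02-fold, started at 9.18 ± 0.795 FPKM. Arfgap3 was at 0.621 ± 0.0899 FPKM in WT, Sec23b at 2.50 ± 0.107, Tmed3 at 2.52 ± 0.112 and Sec24d at 3.98 ± 0.133 FPKM, and they reached 2.38, 5.68, 8.26 and 9.18 FPKM in S100a16KO+/-.

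The share that each paralog took of its family was compared next. In 14 of 21 paralog shares of summed FPKM, the 3 S100a16KO+/- libraries did not overlap the 3 WT libraries. Each of these had an exact two-sided permutation p of 0.1, the smallest that 3 against 3 libraries allow, and 0.15 after Benjamini-Hochberg adjustment over the 21 shares, so none could pass 0.05. Shares in a family of 2 mirror each other, so the Sec23, Sar1 and Copg shifts each enter the 14 as 2 shares. Reads that paralogs might share could not be traced in gene-level values. Shares in other gene families were not computed. For single genes, levels did not overlap in 19.2% (higher in S100a16KO+/-) and 18.6% (lower) of all tested genes. Sec23b made up 17.6%, 16.1% and 16.1% of Sec23 FPKM in WT and 30.9%, 33.7% and 33.1% in S100a16KO+/-. Sec24d took 20.2%, 19.5% and 18.8% of Sec24 FPKM in WT and 36.3%, 37.4% and 32.6% in S100a16KO+/-, and Sec24a 28.9%, 29.9% and 30.6% against 18.1%, 17.3% and 18.1%. Sec24a was the more abundant of this pair in every WT library and Sec24d in every S100a16KO+/- library, with a Sec24d to Sec24a ratio of 0.655 ± 0.0421 in WT and 1.99 ± 0.180 in S100a16KO+/- (SD, n = 3).

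Sec24c had the largest Sec24 share in WT, 38.6% ± 1.51 (SD, n = 3), and overlapped between genotypes. Kdelr2 went from 42.2% ± 2.22 to 53.0% ± 0.900 of KDEL receptor FPKM and passed Kdelr1, with ratios of 0.734 ± 0.0693 and 1.13 ± 0.0377. Arfgap3 went from 3.22% ± 0.318 to 11.2% ± 1.19 of Arfgap FPKM, where Arfgap2 remained the most abundant at 73.8% ± 1.93 in S100a16KO+/-. Other shifts without overlap were those of Copg1 (49.5% to 58.4%), Arf4 (15.7% to 21%), Arf5 (23.5% to 20.2%) and Sar1a (8.78% to 12.2%). The share of Copz1 overlapped between genotypes. The ratio of Lman1 to Mcfd2 was 0.30, 0.315 and 0.299 in WT and 0.456, 0.443 and 0.476 in S100a16KO+/-.

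**Figure D3:**
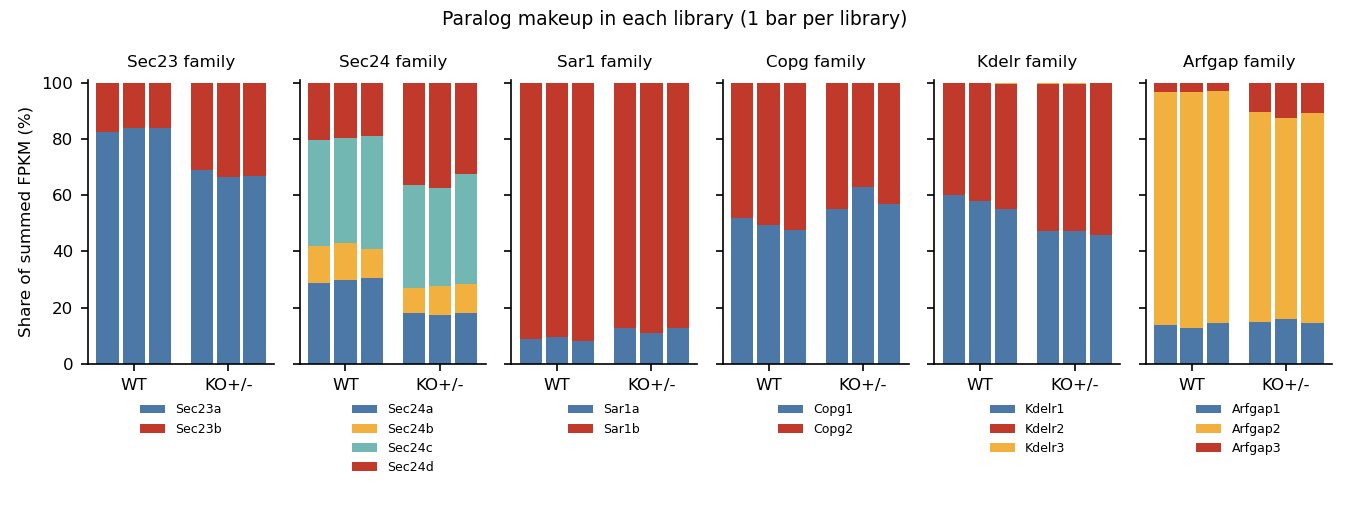
Share of each paralog in the summed FPKM of its family (%, y axis), 1 stacked bar per library, with 3 WT bars left and 3 S100a16KO+/- bars (KO+/-) right in each panel. Sec24d covers 18.8% to 20.2% of the Sec24 bars in WT and 32.6% to 37.4% in S100a16KO+/-, and Kdelr3 is too low to be seen.

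FPKM was also summed over paralogs and roles. The 4 Sec24 genes together gave 19.5 to 21.1 FPKM in WT and 25.1 to 26.8 in S100a16KO+/- (1.27-fold), and the 2 Sec23 genes 14.9 to 15.4 against 16.2 to 18.1 FPKM (1.16-fold). The 2 Sar1 genes gave 142 to 172 FPKM in WT and 125 to 149 in S100a16KO+/- (0.860-fold, overlapping). The COPII sum, of which Sar1b is the largest contributor, overlapped between genotypes, at 199 to 230 and 194 to 222 FPKM. Without Sar1a and Sar1b, a choice made after the values were seen, it was 56.9 to 60.4 FPKM in WT and 68.4 to 73.6 in S100a16KO+/-. The sums did not overlap for COPI (69.4 to 74.6 and 80.5 to 89.9 FPKM), the KDEL receptors (60.1 to 61.4 and 79.0 to 82.8), the p24 family (94.6 to 105 and 126 to 140) and the other cargo receptors (150 to 172 and 176 to 193), and they overlapped for the ARF GTPases and regulators (104 to 115 and 114 to 128).

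Other genes of the route were followed as lists. Of 36 vesicle tethers, SNAREs and TRAPP subunits, which dock and fuse the vesicles, 11 were higher and 4 lower, 30.6% and 11.1% of the list beside 11.6% and 11.2% of all tested genes, with a median log2 fold change of 0.07. Stx5a, the Golgi t-SNARE for vesicles arriving from the ER, rose from 25.0 ± 0.341 to 58.2 ± 0.373 CPM (SD, n = 3, log2 fold change 1.22, edgeR adjusted p = 1.19e-09). Rint1, of a tether for vesicles returning to the ER, had a log2 fold change of 0.83, the SNARE Bet1l one of 0.81, and Uso1, the tether p115, one of 0.63. The 4 genes called lower, a share close to that of all tested genes, were Gosr1, Trappc3, Trappc5 and Trappc13, and they were chosen for naming after their values were seen. Of 24 tested genes for ER exit sites and further cargo factors, 10 were higher (41.7%) and 1 lower (4.17%, Cnih1, -0.27), with a median of 0.22. Tmem39a had the largest rise, 1.51. Preb, the exchange factor that activates Sar1, rose from 62.7 ± 1.69 to 105 ± 5.22 CPM (log2 fold change 0.74), Arf2 by 0.57 and Tfg, which organises exit sites, by 0.43.

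Clathrin and the AP-1 and AP-3 adaptors, which form coats after the Golgi, were taken for comparison. Of 18 tested genes, 0 were higher and 1 lower by edgeR (Ap1s1, -0.25, a call lost with any 1 library left out), with a median of 0.05. The shares were 0% and 5.56%, beside 11.6% and 11.2% of all tested genes. At an unadjusted p under 0.05, 3 were higher and 2 lower, and DESeq2 called 1 higher and limma voom 0. Of 8 genes for transcription factors tied to ER and Golgi stress, 4 were higher and 2 lower. These are 50% and 25% of the list, beside 11.6% and 11.2% of all tested genes. Creb3l2, a relative of ATF6, rose from 11.8 ± 0.341 to 35.1 ± 1.94 CPM (SD, n = 3, log2 fold change 1.58, edgeR adjusted p = 2.43e-09). Atf6b had a log2 fold change of 0.75, Creb3 one of 0.40 and Atf6 one of 0.21. The liver-rich Creb3l3 was lower (-0.25), as was total Xbp1 (-0.22), and gene-level counts do not separate the spliced form of Xbp1. Tfe3, a factor that binds the Golgi stress element, was not called (0.22, edgeR adjusted p = 0.123).

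**Figure D4:**
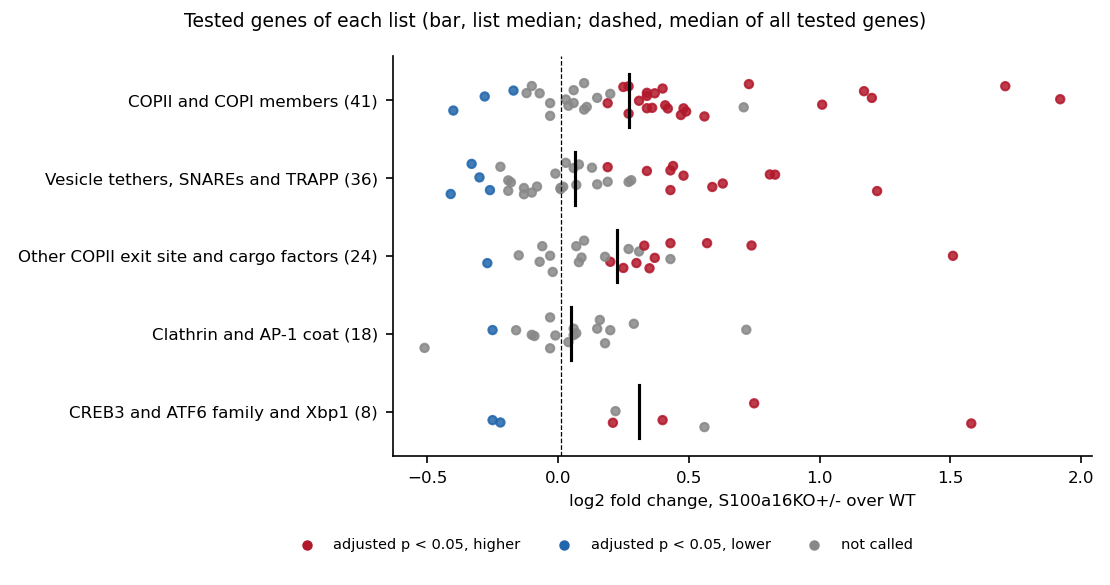
Log2 fold change (S100a16KO+/- over WT, x axis) of the tested genes in each list, 1 point per gene coloured by its call (edgeR, adjusted p under 0.05), with a bar at the list median and a dashed line at the median of all tested genes (0.01). The COPII and COPI members have a median of 0.27 and the clathrin list one of 0.05.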

How the data were processed

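Primary hepatocyte RNA was sequenced in 6 libraries of polyadenylated RNA (WT 1 to 3 and S100a16KO+/- 1 to 3, grouped by their labels), read as paired ends of 150 bases. Per the labels, adapters carried molecular identifiers, and the submitters' processing notes name cutadapt 1.9, HISAT2 2.0.4, UMI-tools, StringTie 1.3.4d, DESeq2, edgeR and the mm10 build. The authors deposited, per gene, FPKM and estimated counts. In these, 1 fragment appears to be worth about 4 counts, which was inferred here from the values. The library kit marks strand, but the counting setting is not given in the sources used here. Estimated counts were rounded and fitted with edgeR 4.0.16 (TMM factors, filterByExpr, robust quasi-likelihood test, no covariate) in R 4.3.3. The fits were checked on simulated data. The 18 alternatives included DESeq2 1.42.0, limma 3.58.1, other scaling and filters, and left-out libraries. The SE was derived from the fold change and its F statistic. CPM values carry TMM factors. Nothing in the labels says that libraries came from separate animals, so p-values measure the spread between these libraries. Totals of counts set the precision, and limits from counts cover counting error only. Full values were given for the 12 largest called rises, the called falls, and the Sec24 and KDEL receptor paralogs, and the rule named up to 4 called genes per list, those with the largest change. Further genes of the lists, such as those called lower, were named after their values were seen. The members, lists and tests were chosen with earlier results of these data known. Protein sequences were not used here.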

Additional observations from a re-analysis of the deposited data

How the results depend on the processing

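Of the 23 members called higher, 19 were so in all 18 other settings, and of the 3 called lower only Sec24a was. No called value changed sign in any setting, and the members called higher numbered 19 to 25. The cause was not tested where a value moved. With limma on log2(FPKM + 1), where genes averaging below 1 FPKM were left out, 2228 genes were called over the whole table, 1 member was lower and 3 members passed the criterion of the study, and with log2(FPKM + 0.1) the whole-table count was 2208 and 1 member was lower. In both limma fits and with upper-quartile factors, 2 tethers, SNAREs and TRAPP subunits, 0 exit site and cargo factors and 0 clathrin genes were called lower. Clathrin genes called higher numbered 3 with upper-quartile factors, 2 with a minimum of 1 CPM, 1 with DESeq2 and 1 with counts divided by 4, and 0 were called lower with no filter on low counts. In shares of CPM in place of FPKM, the difference in percentage points was -18 for Sec23a and 18 for Sec23b, -15.1 for Sec24a, 0.742 for Sec24c, 6.93 for Sar1a and -6.93 for Sar1b, and 7.08 for Arf4.

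Leaving out libraries gave 2734 to 3412 genes called over the whole table, 2 to 3 tethers, SNAREs and TRAPP subunits lower, 0 to 1 exit site and cargo factors lower, 0 to 2 clathrin genes higher and, in every case, 0 lower, and 1 to 2 CREB3 and ATF6 family genes lower. With the replicate number as a block, 20 members were higher and 2 lower, 3082 genes were called over the whole table and 0 clathrin genes were lower. The deviations of same-numbered libraries had correlations of -0.0472, -0.0237 and 0.0518, so no shared deviation was seen. With 3 libraries per genotype, this does not settle whether the numbers pair the samples.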
